A study of Mus musculus with 6 samples.

Results

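Tetraspanins are a family of small membrane proteins that cross the membrane several times and carry a large extracellular loop held by disulphide bonds. The 29 genes described here are the rows of the deposited count tables whose symbol begins with Tspan and a digit, or is Cd9, Cd37, Cd53, Cd63, Cd81, Cd82, Cd151, Upk1a or Upk1b. Each table held 23420 gene rows. Of the 29 tetraspanin genes, 22 (75.9%) had a mean of 1 CPM (reads scaled to 1000000 gene reads per library) or more over the libraries, 3 had traces of reads, and 4 had none in any library. For all genes, the share with a mean of 1 CPM or more was 50.1%.

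The libraries came from Meta4, a line of mouse epithelial organoids with dysplasia, whose cells were sorted by flow cytometry into subpopulations of dysplastic stem cells called DP-DSCs and TP-DSCs. Polyadenylated RNA of 3 libraries of each was sequenced, and both groups come from the same organoid line. The labels do not spell out the names. As the study is known, DP and TP are read as double and triple positive for surface proteins, CD133 and CD166 in both and a variant form of CD44 added in TP-DSCs. The labels call the samples independent without naming separate cultures, so the p-values rest on the variation among these samples, part or all of which may be technical. All values describe 1 line.

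In the membrane, tetraspanins bind each other and a set of partners, among them laminin-binding integrins, immunoglobulin-domain proteins, growth factor precursors and the protease ADAM10, and so arrange these partners into patches. Cd9, Cd63 and Cd81 are the usual protein markers of extracellular vesicles, and Cd63 also marks late endosomes and lysosomes. In gut epithelium, Tspan8 and Tspan1 are known as abundant surface members, and Tspan8 has been studied as a promoter of tumour cell spread.

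Gene reads per library ran from 17015581 to 32671039, and genes with at least 1 read from 12504 to 14434 in DP-DSCs and from 10571 to 10982 in TP-DSCs. The numbers 3840 and 4140 in the library names, whose meaning the labels do not give, divide each group into 1 library with 3840 (replicate 1) and 2 with 4140 (replicates 2 and 3). The 6 epithelial markers checked (Epcam, Cdh1, Krt8, Krt18, Krt19 and Cldn7) lay between 267.2 and 3513 CPM in every library. The summed level of 10 leukocyte markers was 0.518 to 0.736 CPM in the DP-DSC libraries and 0 in the TP-DSC libraries. That of 7 fibroblast markers was at most 3.19 CPM and that of 5 endothelial markers at most 4.995 CPM in any library.

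The promoters of 3 members with different behaviour in these libraries are shown first: Cd9, the member with the highest CPM; Cd53, a gene known from leukocytes that had reads here; and Upk1a, which had reads in DP-DSCs alone. Each run is the RefSeq window (GRCm38.p6) of 300 bases around the gene's start, 5′ to 3′ on the gene's strand. Capitals mark the dinucleotide CG, which reads the same on both strands and cannot overlap itself. Cd9 is read from the minus strand at chr6:125494711-125495010, Cd53 from the minus strand at chr3:106790100-106790399, and Upk1a from the minus strand at chr7:30612685-30612984.
Cd9: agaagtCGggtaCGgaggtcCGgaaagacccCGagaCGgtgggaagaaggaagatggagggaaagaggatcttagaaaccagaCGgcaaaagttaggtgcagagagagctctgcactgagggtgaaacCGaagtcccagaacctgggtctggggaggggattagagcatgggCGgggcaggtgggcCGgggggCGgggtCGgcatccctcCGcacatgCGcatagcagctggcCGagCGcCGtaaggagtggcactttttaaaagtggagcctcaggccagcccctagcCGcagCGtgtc
Cd53: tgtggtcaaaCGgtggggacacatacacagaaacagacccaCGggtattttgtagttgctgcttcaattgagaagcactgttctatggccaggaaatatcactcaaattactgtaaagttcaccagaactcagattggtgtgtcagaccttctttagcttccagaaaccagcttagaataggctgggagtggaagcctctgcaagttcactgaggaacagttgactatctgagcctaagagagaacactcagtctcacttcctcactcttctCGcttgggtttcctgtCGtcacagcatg
Upk1a: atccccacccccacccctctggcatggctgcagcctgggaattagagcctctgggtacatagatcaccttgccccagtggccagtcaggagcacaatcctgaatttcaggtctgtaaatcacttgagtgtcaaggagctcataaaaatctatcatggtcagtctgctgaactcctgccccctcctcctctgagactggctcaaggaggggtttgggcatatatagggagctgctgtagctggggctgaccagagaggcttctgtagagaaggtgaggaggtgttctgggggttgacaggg

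The Cd9 window held 18 CG, the Cd53 window 4 and the Upk1a window 0. Among 27025 genes with a window, taking for each gene its window with the most CG, 94.6% held at least 1 CG, 32.1% held as many as Cd9 or more, and 69.7% held as many as Cd53 or more. A window was matched for 27 of the 29 tetraspanin genes. The 22 members with a mean of 1 CPM or more had from 4 to 43 CG (Tspan5 the most) with a median of 19.5. The 8785 genes of that abundance with a matched window had a median of 23. The 5 matched members below 1 CPM had 0 to 8 with a median of 2, and the 7590 matched genes below 1 CPM had a median of 4. Several abundant members, Tspan8, Cd63 and Tspan1 among them, had few CG in these windows (5, 6 and 6).

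The order of levels between genes was taken per length, as CPM per kilobase of the longest annotated coding transcript (RPKM). By this measure Cd63 and Cd9 stood highest, with means over the 6 libraries of 468.6 and 456.3 RPKM, followed by Cd81 at 309.7 and Tspan8 at 236.3. Cd63 was above Cd9 in 4 of 6 libraries, so their order is not fixed by these data. Cd9 lay above Cd81 without overlap, and Tspan8 above Tspan1 (88.0 RPKM) without overlap. Cd81 exceeded Tspan8 in 6 of 6 libraries although their ranges overlapped. Of the 21 neighbouring pairs in the order of the 22 genes, these 3 alone kept their order in every library. A middle group from Tspan1 and Tspan3 (74.3 RPKM) through Cd151 (61.3), Tspan31 (57.2), Tspan14 (47.2), Cd82 (42.7), Tspan12 (39.4), Tspan13 (34.5), Tspan4 (29.4) and Tspan15 (29.2) had overlapping neighbours throughout. Tspan7 (18.6), Tspan9 (11.4), Tspan5 (8.63), Tspan17 (7.90), Tspan33 (5.26), Cd53 (4.59), Tspan6 (3.25) and Tspan2 (2.58) formed the low end. Genes with very long annotated transcripts, such as Tspan7 (7067 bases) and Tspan5 (6653 bases), would stand higher if a shorter form is the one expressed.

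**Figure D1:**
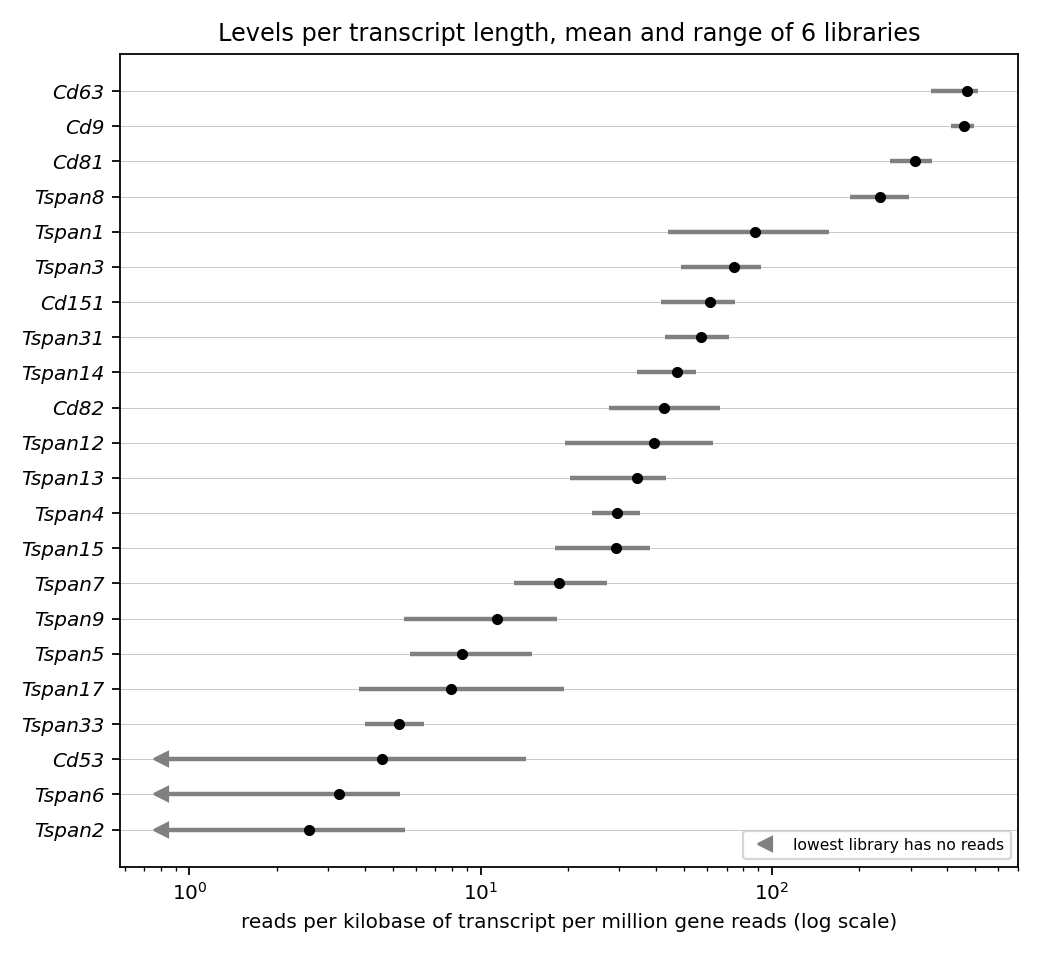
Levels of the 22 tetraspanin genes with a mean of 1 CPM or more, in RPKM on a log axis. Points are means and bars the range of the 6 libraries; Cd63, Cd9, Cd81 and Tspan8 stand apart at the top with means from 236.3 to 468.6.

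Tetraspanin transcripts made up a similar share of all gene reads in each library. The summed level was 3316, 3082 and 3332 CPM in DP-DSCs replicates 1, 2 and 3 and 3368, 3172 and 2792 CPM in TP-DSCs replicates 1, 2 and 3. The groups overlapped. In bulk libraries such as these, fewer cells expressing a gene and less of its RNA per cell cannot be told apart. Cd9, Cd63 and Cd81 together gave 47.1 to 51.2% of these reads in every library.

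The comparison of TP-DSCs with DP-DSCs asked which genes differ between the sorted subpopulations. For the tetraspanins no difference passed the threshold. Of the 29 genes, 23 passed the filter on low counts, among them Upk1a, which passed through its reads in DP-DSCs. In edgeR's quasi-likelihood test over 11925 genes, 0 of the 23 had an adjusted p under 0.05, where 0% of all tested genes did. At an unadjusted p under 0.05 there was 1 member, Upk1a, where 6.1% of all tested genes fell. DESeq2 on the same genes called 0 of 23 members and 0.78% of all genes. Log2 fold changes (TP-DSCs over DP-DSCs) were above 0 for 9 members and below 0 for 14, with a median of -0.095, also with Upk1a at the bound its reads allow, beside a median of -0.019 over all tested genes. Only Upk1a had groups without overlap, 1 of 23 members against 12.9% of all tested genes.

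Most of the 19 members with reads in all 6 libraries had small fold changes, with Tspan17 (0.96) and Tspan9 (-0.58) the largest. This set leaves out tested members that lacked reads in some library, Cd53, Tspan2, Tspan6 and Upk1a. Their median absolute log2 fold change was 0.164, and 17 of 19 (89.5%) lay under 0.5 on the log2 scale. Among the 9521 tested genes with reads in all 6 libraries the median was 0.247 and 79.7% lay under 0.5. These genes were not matched to the members in abundance. The 17 members with a mean of 30 CPM or more had a median coefficient of variation of 21.4% over the 6 libraries, and the 6513 genes of that abundance 25.3%.

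**Figure D2:**
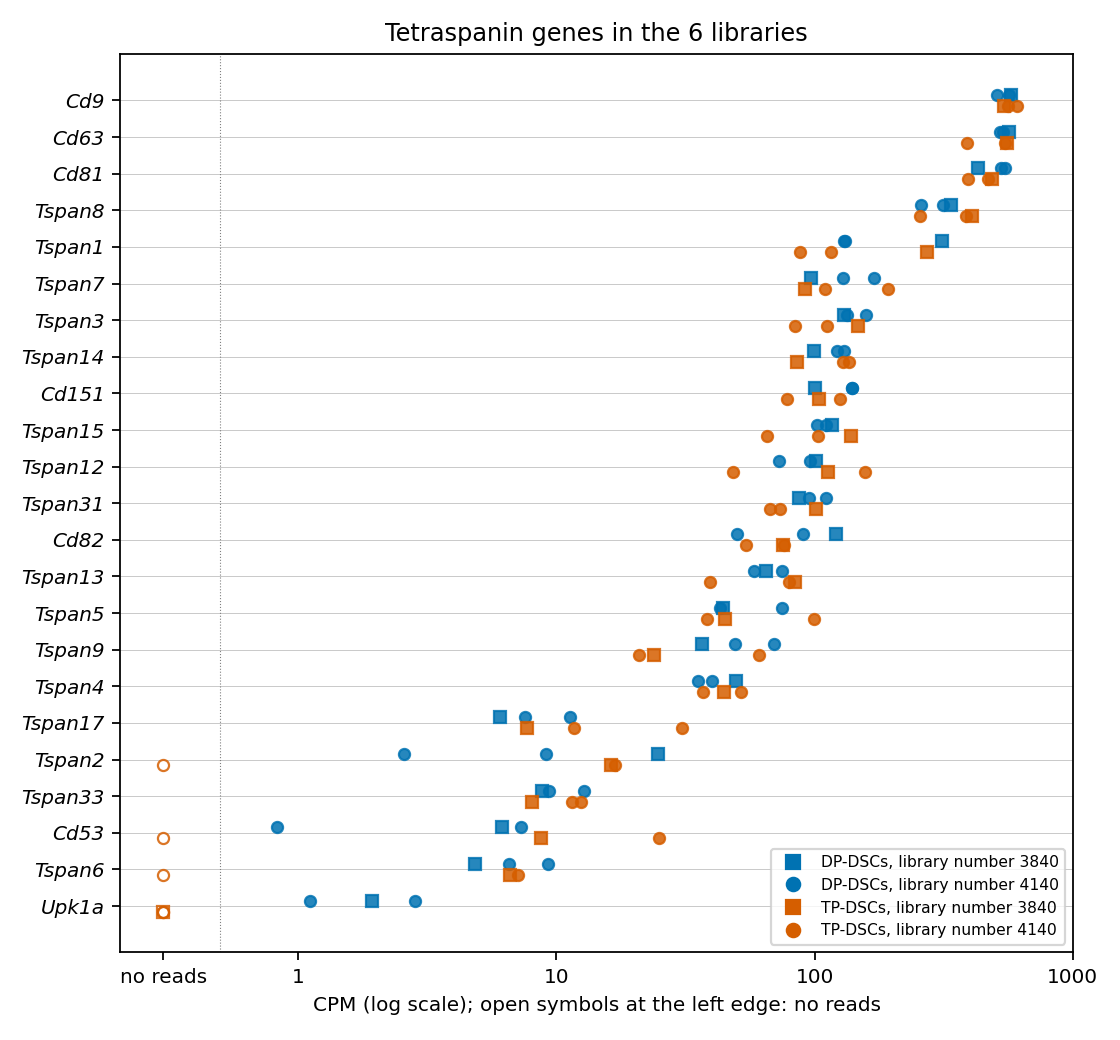
CPM of the 22 tetraspanin genes with a mean of 1 CPM or more and of Upk1a in each library, on a log axis, with colour for the group and symbol shape for the number in the library name. Open symbols at the left mark libraries with no reads; apart from Upk1a, no gene shows the groups without overlap.

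Among the vesicle markers, Cd9, which takes part in cell adhesion and in the fusion of sperm and egg, was the steadiest member. It stood at 574, 507 and 565 CPM in DP-DSCs and 542, 610 and 563 CPM in TP-DSCs (replicates 1, 2 and 3, the order used throughout). The highest library was 1.20 times the lowest, and the log2 fold change was 0.04 ± 0.18 (SE; edgeR adjusted p = 0.999). Cd63, which traffics between late endosomes and the surface, stood at 565, 535 and 524 CPM in DP-DSCs and 557, 546 and 390 CPM in TP-DSCs. TP-DSCs replicate 3 was the low library, and the log2 fold change of -0.13 ± 0.22 turned to 0.04 without it.

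Cd81, known as a partner of the B cell co-receptor and as a vesicle marker, stood at 428, 529 and 546 CPM in DP-DSCs and 487, 467 and 392 CPM in TP-DSCs. The groups overlapped, with a log2 fold change of -0.16 ± 0.20 (edgeR adjusted p = 0.999) that ranged from -0.31 without TP-DSCs replicate 1 to -0.0472 without TP-DSCs replicate 3. The difference in mean log2 CPM was -0.37 within 4140 and 0.22 in the 3840 pair. Tspan8 stood at 338, 257 and 315 CPM in DP-DSCs and 408, 385 and 256 CPM in TP-DSCs. Its lowest libraries belonged to both groups, and its log2 fold change of 0.19 ± 0.27 turned to -0.02 without TP-DSCs replicate 1.

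Tspan1, a surface protein of many epithelia, was higher in the libraries numbered 3840 of both groups. It stood at 312 CPM in DP-DSCs replicate 1 and 273 CPM in TP-DSCs replicate 1, the libraries numbered 3840. In the libraries numbered 4140 it stood at 131 and 130 CPM in DP-DSCs and 87.6 and 116 CPM in TP-DSCs. Both 3840 libraries thus lay above all 4 of the 4140 libraries. The difference of 4140 from 3840, in a fit with group and number, was -1.48 ± 0.18 on the log2 scale (edgeR unadjusted p = 0.000105, adjusted p = 0.103), which did not pass, and no gene passed in that fit (0%, with 9.3% of 11925 genes at an unadjusted p under 0.05). Tspan1 was the only 1 of the 23 tested members with an edgeR unadjusted p under 0.05 in that fit. The share of all genes without overlap by number was not counted. The contrast by number was looked at after the values were seen. Between groups, the log2 fold change of Tspan1 was -0.26 ± 0.56 over all libraries, and the difference in mean log2 CPM was -0.41 within 4140 and -0.16 in the single pair of 3840. Without DP-DSCs replicate 1 the fold change turned to 0.31.

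The TspanC8 group, named for the cysteines of its large loop, escorts ADAM10 to the surface and shapes its choice of substrates, Notch receptors among them. Of its 6 genes, Tspan10 had no reads in any library and 5 were measured, none past the threshold. Tspan14 stood at 99.2, 130 and 122 CPM in DP-DSCs and 85.5, 129 and 136 CPM in TP-DSCs, with a log2 fold change of -0.02 ± 0.20 whose sign changed with the scaling. Tspan15, an escort that favours cleavage of N-cadherin, stood at 116, 111 and 102 CPM in DP-DSCs and 139, 103 and 65.5 CPM in TP-DSCs. The TP-DSC libraries lay on both sides of the DP-DSC range, and the log2 fold change of -0.10 ± 0.32 turned to 0.17 without TP-DSCs replicate 3.

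Tspan5 stood at 44.1, 42.9 and 74.5 CPM in DP-DSCs and 45.0, 38.2 and 99.7 CPM in TP-DSCs. Replicate 3 was the highest library in each group, though replicate numbers pair nothing between the groups. Without TP-DSCs replicate 3 the log2 fold change of 0.15 ± 0.42 turned to -0.35. Tspan17 stood at 6.07, 7.59 and 11.3 CPM in DP-DSCs and 7.70, 11.8 and 30.7 CPM in TP-DSCs. Its log2 fold change of 0.96 ± 0.74 (edgeR adjusted p = 0.999) was the largest among members with reads in all 6 libraries, and it fell to 0.23 without TP-DSCs replicate 3. Tspan33 stood at 8.84, 9.37 and 12.8 CPM in DP-DSCs and 8.02, 12.5 and 11.5 CPM in TP-DSCs, with a log2 fold change of 0.01 ± 0.67 whose sign changed with the low-count filter.

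The protease itself, Adam10, stood at 341, 362 and 393 CPM in DP-DSCs and 330, 432 and 390 CPM in TP-DSCs. Its groups overlapped, with a log2 fold change of 0.05 ± 0.17. Of the 5 ADAM and Notch genes tested (Adam10, Adam17, Notch1, Notch2 and Notch3), 0 passed in either direction, and the median log2 fold change was -0.06. Adam17, the related sheddase, had the smallest p of the 5 with a log2 fold change of -0.44 ± 0.25, followed by Notch1 with 0.21 ± 0.21 and Notch2 with -0.19 ± 0.21.

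Among the members that bind integrins, Cd151, the main tetraspanin partner of the laminin receptors, stood at 100.2, 139 and 139 CPM in DP-DSCs and 104, 78.0 and 125 CPM in TP-DSCs. TP-DSCs replicate 2 was the lowest library and the groups overlapped, with a log2 fold change of -0.31 ± 0.24 (edgeR adjusted p = 0.999) that came to -0.13 without that library. The difference was -0.53 in mean log2 CPM within 4140 and 0.08 in the pair of 3840. Cd82, known as a suppressor of metastasis, stood at 121, 50.3 and 90.5 CPM in DP-DSCs and 75.1, 54.2 and 76.1 CPM in TP-DSCs, with the TP-DSC libraries inside the DP-DSC range. Of 5 integrin genes tested as partners, 0 passed in either direction, and 4 of them, Itga3, Itga6, Itgb1 and Itgb4, had log2 fold changes between -0.08 and 0.06. Itga7 had 0.54 ± 1.21.

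Of 12 adhesion, growth factor and protease partners, 11 were tested and 0 passed in either direction, with a median log2 fold change of -0.095. Groups without overlap after TMM scaling were seen for 2 of the 11, Hbegf and Cldn7, against 12.9% of all tested genes. Hbegf, an EGF receptor ligand whose precursor binds Cd9, had the smallest p. It stood at 45.0, 48.5 and 48.3 CPM in DP-DSCs and 104, 54.9 and 56.2 CPM in TP-DSCs. The lowest TP-DSC library exceeded the highest DP-DSC library, with a log2 fold change of 0.61 ± 0.34 (edgeR adjusted p = 0.999), and the difference in mean log2 CPM was 1.24 in the 3840 pair and 0.16 within 4140. Cldn7, a claudin found in complexes with Epcam and Tspan8, stood at 307, 358 and 341 CPM in DP-DSCs and 267, 293 and 283 CPM in TP-DSCs, again without overlap, with a log2 fold change of -0.27 ± 0.15 (edgeR adjusted p = 0.999). Mmp14, a membrane-bound protease, followed with -0.44 ± 0.30.

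Tspan12, a co-receptor of Norrin and Frizzled in beta-catenin signalling, stood at 101, 96.2 and 73.0 CPM in DP-DSCs and 113, 156 and 48.4 CPM in TP-DSCs. The TP-DSC libraries spanned a wider range than the DP-DSC libraries on both sides. Its log2 fold change of 0.22 ± 0.41 turned to -0.11 without TP-DSCs replicate 2. Of the 4 genes of its receptor complex (Ndp, Fzd4, Lrp5 and Lrp6), 0 passed in either direction. All 4 had a fold change above 0, from 0.003 for Lrp5 to 2.10 ± 2.01 for Ndp, where 5752 of 11925 tested genes did. None of the 4 kept this direction by library-name number, since the difference in mean log2 CPM was -1.37 for Fzd4, -0.19 for Lrp6 and -0.14 for Lrp5 in the 3840 pair and -0.66 for Ndp within 4140. Ndp, which encodes Norrin itself, had at most 5.88 CPM and no reads in TP-DSCs replicate 3.

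The other members of middle level showed overlapping groups. Tspan3, a broadly expressed member, stood at 130, 134 and 158 CPM in DP-DSCs and 148, 112 and 83.7 CPM in TP-DSCs, with a log2 fold change of -0.29 ± 0.27. Tspan31 stood at 86.7, 95.4 and 111 CPM in DP-DSCs and 101, 73.5 and 67.1 CPM in TP-DSCs, with a log2 fold change of -0.28 ± 0.26. For both, the TP-DSC libraries numbered 4140 were the lowest, and the difference in mean log2 CPM was -0.63 for Tspan3 and -0.59 for Tspan31 within 4140 against 0.22 and 0.25 in the 3840 pair.

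Tspan31 lies next to the cell cycle kinase gene Cdk4 on the opposite strand, and 641 of its 2193 annotated exon bases overlap exons of Cdk4. The strand setting of the counting is not given in the sources used here, so reads of the overlap cannot be assigned with certainty. The mean of Cdk4 (TMM-scaled) was 340.7 CPM for DP-DSCs and 329.1 CPM for TP-DSCs, with a log2 fold change of -0.05 ± 0.28. Tspan4, a builder of the migration organelles called migrasomes, overlaps Chid1 on the opposite strand over 292 of 2178 exon bases.

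Tspan9, known from platelets, stood at 36.5, 69.9 and 49.4 CPM in DP-DSCs and 23.9, 60.8 and 20.9 CPM in TP-DSCs. The 2 lowest libraries were TP-DSCs, and TP-DSCs replicate 2 lay inside the DP-DSC range. The log2 fold change was -0.58 ± 0.45 (edgeR adjusted p = 0.999) and ranged from -1.18 without TP-DSCs replicate 2 to -0.30 without TP-DSCs replicate 3. Tspan7, Tspan13 and Tspan4 had log2 fold changes between -0.04 and 0.07. Tspan7 ranged from 92.2 to 192 CPM, Tspan13 from 39.2 to 83.9 CPM and Tspan4 from 35.5 to 51.7 CPM over the 6 libraries.

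**Figure D3:**
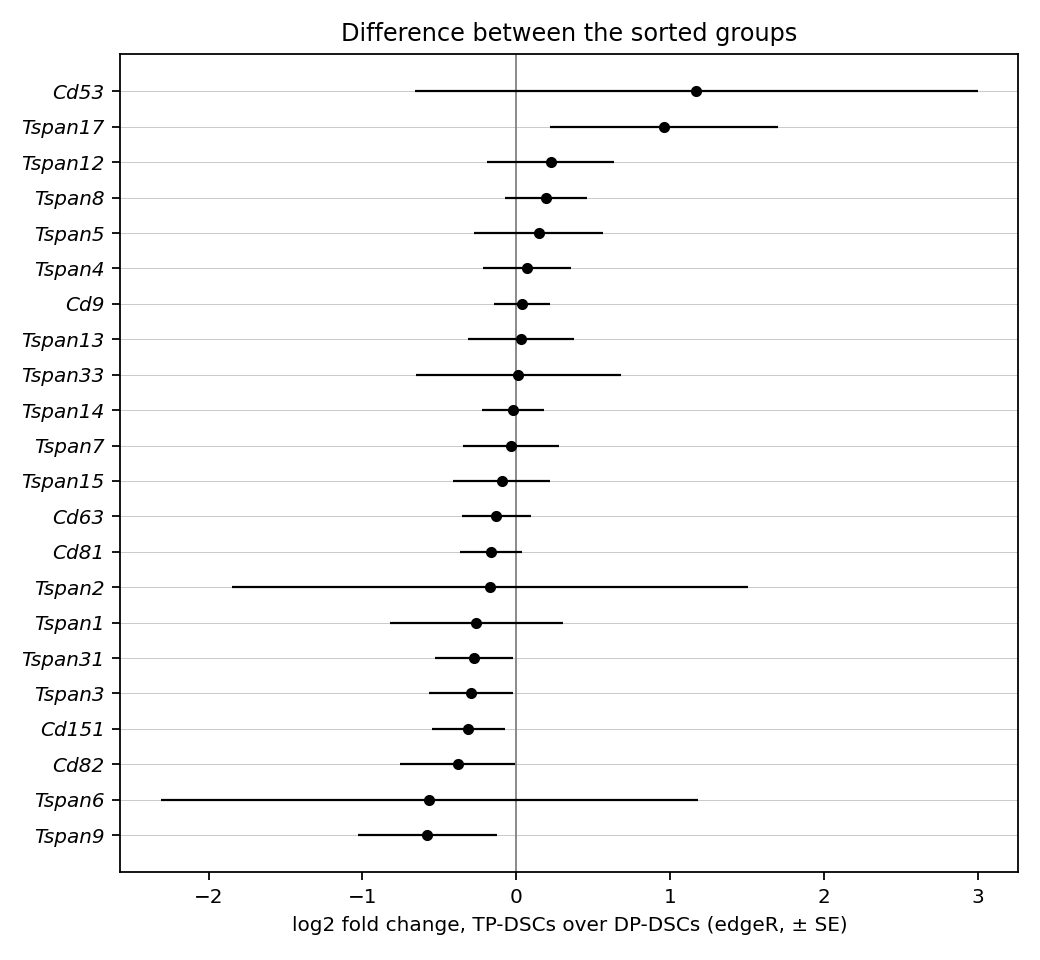
Log2 fold changes (TP-DSCs over DP-DSCs) with standard errors from edgeR for the tested members other than Upk1a. Estimates run from -0.58 for Tspan9 to 1.17 for Cd53, and Cd53, Tspan2 and Tspan6, each without reads in 1 library, have the widest errors.

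Among the members with means of 5.74 to 12.5 CPM, Cd53, Tspan2 and Tspan6 lacked reads in 1 library each, while Tspan17 and Tspan33 had reads in all 6. Cd53, a tetraspanin of leukocytes, stood at 6.14, 0.826 and 7.33 CPM in DP-DSCs and 8.74, 0 and 24.9 CPM in TP-DSCs. Its reads numbered 774 in TP-DSCs replicate 3 and 0 in replicate 2, which with 3 counts as the limit allows up to 0.176 CPM there. The log2 fold change of 1.17 ± 1.83 turned to -0.06 without TP-DSCs replicate 3. The defining leukocyte marker Ptprc (CD45) had no reads in 5 of 6 libraries and 0.092 CPM in DP-DSCs replicate 1. In the TP-DSC libraries all 10 leukocyte markers were at 0, and Cd37, the other leukocyte tetraspanin, had 2 reads in DP-DSCs replicate 1 and none elsewhere.

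Tspan2, known from oligodendrocytes, stood at 24.7, 2.57 and 9.14 CPM in DP-DSCs and 16.2, 0 and 16.8 CPM in TP-DSCs. In each group the replicate 2 library was the lowest, though replicate numbers pair nothing between the groups. Tspan6 stood at 4.85, 9.30 and 6.59 CPM in DP-DSCs and 6.61, 7.11 and 0 CPM in TP-DSCs, with TP-DSCs replicate 3 alone without reads. The log2 fold changes were -0.17 ± 1.68 for Tspan2 and -0.56 ± 1.74 for Tspan6. Missing reads in single TP-DSC libraries were common at these levels. Among other genes within 1.5 times the DP-DSC mean of Tspan6, 53.4% had no reads in at least 1 TP-DSC library. The share was 25.6% for the level of Tspan2 and 72.2% for that of Cd53. Because these genes were picked by their DP-DSC level alone, the shares may be raised, and the reverse count was not made.

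The members next above the rule's threshold of 1 CPM were Tspan6 (mean 5.74 CPM) and Cd53 (7.99 CPM). Those next below it were Upk1a (0.982 CPM), close to the threshold, and Tspan32 (0.031 CPM). Tspan32, a haematopoietic member, had 5 reads in DP-DSCs replicate 3 alone. Upk1a and Upk1b form, with other uroplakins, the plaques of the bladder surface. Upk1a pairs with Upk2 in these plaques, and Upk1b with Upk3a or Upk3b. Upk2 and Upk1b had no reads in any library, and Upk3a and Upk3b had at most 0.429 CPM.

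Upk1a stood at 1.93, 2.85 and 1.11 CPM in DP-DSCs, or 63, 93 and 30 reads, and was without reads in all 3 TP-DSC libraries. Against the limit of 3 counts over the 3 TP-DSC libraries (0.0411 CPM), the pooled level of 2.02 CPM in DP-DSCs was at least 49.1-fold higher in reads. Limits of this kind cover counting error only, since reads are not independent molecules. Upk1a passed the low-count filter only through its DP-DSC reads, so entering the test already set its direction, and its p-values carry that limit. The edgeR adjusted p was 0.121 (unadjusted p = 0.00241) and did not pass. No gene had a smaller adjusted p, but the Benjamini-Hochberg adjustment gave this value to many genes alike, so it does not rank Upk1a first. At an unadjusted p under 0.05 in edgeR, 4.67% of all tested genes were lower in TP-DSCs (557 genes, against 171 higher). DESeq2 gave an adjusted p of 0.176 on the same genes, and 0.0254 when run on every gene with reads, a setting added after the values were seen under which 1.76% of 15176 genes were called. Of 708 other genes within 1.5 times the DP-DSC mean of Upk1a, 33.3% lacked reads in every TP-DSC library, and 63.1, 70.2 and 70.1% had none in TP-DSCs replicates 1, 2 and 3. Picking genes by their DP-DSC level alone can raise these shares, and the reverse count was not made.

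**Figure D4:**
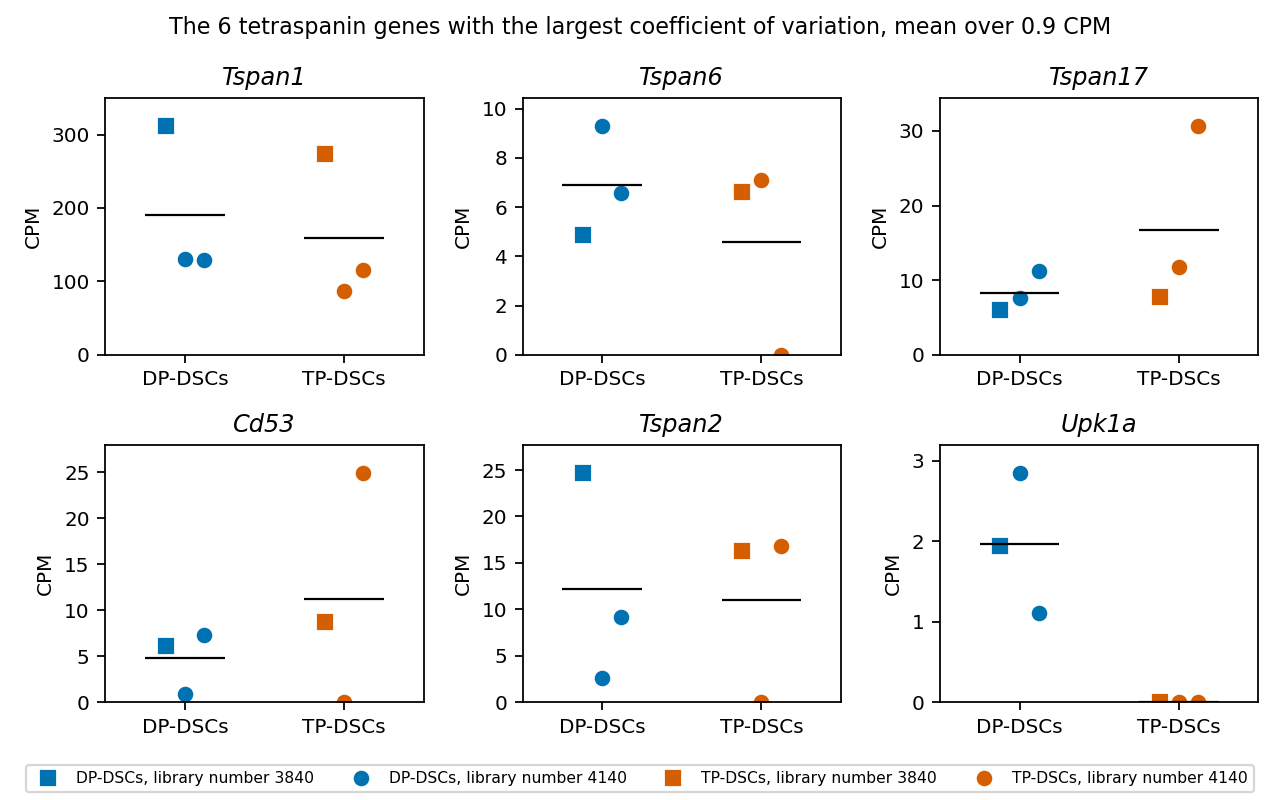
CPM per library of the 6 tetraspanin genes with the largest coefficient of variation among those with a mean over 0.9 CPM, with group means as lines, colour for the group and symbol shape for the number in the library name. Tspan1 is high in both 3840 libraries (312 and 273 CPM), single libraries set the means of Tspan17 and Cd53, and Upk1a has reads in DP-DSCs only.

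The number of members seen also differed between the groups. At least 1 read was counted for 24, 23 and 24 of the 29 genes in DP-DSCs and for 22, 20 and 21 in TP-DSCs, without overlap. The same was true of all genes with reads, 12504 to 14434 in DP-DSCs and 10571 to 10982 in TP-DSCs. Gene reads overlapped between the groups. TP-DSCs replicate 2, with the fewest members, also had the fewest gene reads (17015581). TP-DSCs replicate 3, with 31068454 gene reads, showed fewer members than DP-DSCs replicate 3, with 27027919. Whether depth accounts for the difference was not tested.

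Several members lie side by side in the mouse genome (mm10, the same assembly as GRCm38), and in 3 of the 4 pairs within 500 kilobases of each other 1 gene was read and the other was not or barely. On chromosome 6, Tspan11 (127887589 to 127953977, plus strand) had no reads, while Tspan9 (127961396 to 128143594, minus strand), 7.42 kilobases away, averaged 43.6 CPM. On chromosome 2, Tspan18 (93201760 to 93334505) had no reads, and Cd82 (93419111 to 93463140), 84.6 kilobases away, averaged 77.9 CPM. On chromosome 7, Tspan32 (143005046 to 143019644) lies 33.1 kilobases from Cd81 (143052739 to 143067934), which averaged 474.8 CPM. The exception was Cd151 (chromosome 7, 141467392 to 141471473) and Tspan4 (141475240 to 141493427), 3.77 kilobases apart, which averaged 114 and 43.0 CPM. How often neighbouring genes in general differ in this way was not counted, so the pattern is not shown to be particular to tetraspanins.

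Genes of extracellular vesicles and late endosomes, where Cd63, Cd9 and Cd81 are sorted, were also measured. Of 19 such genes, all tested, 0 passed in either direction, and the median log2 fold change was -0.05. At an unadjusted p under 0.05, 3 were lower in TP-DSCs and 0 higher, where 4.67% of all tested genes were lower, and 5 of 19 had groups without overlap after TMM scaling, against 12.9% of all tested genes. Of these 5, Rab35, Sdc4, Lamp1 and Lamp2 were lower in TP-DSCs and Vps4b, an ATPase that recycles the vesicle-budding machinery, was higher, with a log2 fold change of 0.31 ± 0.17. Rab35, a GTPase of endosome recycling, stood at 61.3, 101 and 72.1 CPM in DP-DSCs and 45.6, 48.0 and 47.7 CPM in TP-DSCs, with a log2 fold change of -0.73 ± 0.23 (edgeR adjusted p = 0.350).

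Sdc4, a syndecan whose tail binds the vesicle adaptor syntenin, stood at 218, 253 and 308 CPM in DP-DSCs and 188, 92.7 and 150.0 CPM in TP-DSCs, with a log2 fold change of -0.85 ± 0.31 (edgeR adjusted p = 0.592). Lamp1, a lysosomal membrane protein, stood at 700.0, 900 and 745 CPM in DP-DSCs and 602, 596 and 510 CPM in TP-DSCs, with a log2 fold change of -0.46 ± 0.19 (edgeR adjusted p = 0.787). The difference in mean log2 CPM within 4140 was -0.87 for Rab35, -1.28 for Sdc4 and -0.61 for Lamp1. In the 3840 pair it was smaller, at -0.40, -0.18 and -0.19. For Rab35, Sdc4 and Lamp1 the highest TP-DSC library was below the lowest DP-DSC library, unlike Cd63, Cd9 and Cd81, whose groups overlapped. Whether their changes differ from those of the vesicle tetraspanins was not tested. Of the tetraspanin relatives of photoreceptors, Prph2 had no reads and Rom1 had at most 2.32 CPM.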

How the data were processed

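PolyA-selected RNA of 3 DP-DSC and 3 TP-DSC samples was sequenced with stranded libraries, per the labels' protocols. The authors deposited 1 raw read count per gene symbol and library. Per the submitters' processing notes, STAR 2.7.3a, Partek, DESeq2 3.5 and build mm10 were used; for the counter, annotation and strand setting, nothing is stated in the sources used. Rows for reads in no gene (14.1 to 20.3%) and ambiguous reads (1.09 to 1.86%) entered neither library sizes nor tests.

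CPM is reads over the library's gene reads. Groups follow the cell subtype label; replicate numbers follow accession order and pair nothing. Chi-square per degree of freedom between replicates was 112.2 or more, so no library was counted as a duplicate. The test was edgeR 4.0.16 (R 4.3.3) quasi-likelihood F on all genes, with filterByExpr (minimum count 10, total 15), scaling by trimmed mean of M values (TMM), no term but group, and p-values adjusted by Benjamini-Hochberg with a threshold of 0.05; SE is the log2 fold change over the square root of F. The common biological coefficient of variation in edgeR was 0.75. The scripts were tested on simulated data with less spread than this, so that check does not measure the power to find differences here. Differences within a library-name number use log2 CPM with a prior count of 2. Alternatives were DESeq2 1.42.0, limma-voom (limma 3.58.1), other scalings and filters, the library-name number as a block, the 4140 libraries alone, each library left out and, added after seeing the data, genes with reads in all 6 libraries and DESeq2 on every gene with reads.

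Members and lists were chosen with earlier results of these data known. Named in full were members past the threshold, otherwise the 5 with the smallest p in each direction, the 5 highest in CPM, the TspanC8, uroplakin, leukocyte and vesicle members, and up to 3 partners per list by p. Tspan2, Tspan6, Cd82, Adam10, Lrp5 and further integrins were named after their values were seen. Coordinates and lengths came from GENCODE M21 (GRCm38), which held all 29 members.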

Additional observations from a re-analysis of the deposited data

How the results depend on the processing

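No tetraspanin gene passed in edgeR, under each scaling, filter, block or left-out library tried, nor in limma-voom. DESeq2 called 93 genes in all and 0 members on the filtered genes, and 267 genes and 1 member (Upk1a) on every gene with reads. The number of all genes called was 0 in every other setting. The median log2 fold change of the members stayed below 0, from -0.001 over genes with reads in all 6 libraries to -0.30 without TP-DSCs replicate 1, and was -0.036 with the library-name number as a block. With at least 10 reads required, 23 members on average were seen per DP-DSC library against 23.67 with 1 read. Per TP-DSC library the average was 21 with either minimum. Of the 17 named members refitted 14 times each, 7 never changed sign, and 24 of 238 fold changes did, none of them past the threshold. Tspan14 turned to 2e-04 with DESeq2 size factors and in DESeq2, 8e-04 with library size only and 0.0179 in the 4140 libraries alone. With limma-voom Cd53 turned to -0.22 and Tspan12 to -0.0277, and without a filter Tspan33 turned to -0.0077. With each library left out in turn, fold changes ranged from -1.01 to 0.31 for Tspan1, -0.10 to 0.19 for Tspan33, -0.35 to 0.45 for Tspan5, -0.0611 to 0.0779 for Cd9, -0.13 to 0.10 for Tspan14, -0.0156 to 0.398 for Tspan8, -0.11 to 0.58 for Tspan12, -0.0621 to 1.75 for Cd53, -0.299 to 0.0427 for Cd63 and -0.47 to 0.17 for Tspan15. Without a change of sign, they ranged from -0.31 to -0.0472 for Cd81, -0.45 to -0.13 for Cd151, -0.61 to -0.0858 for Tspan3 and -0.56 to -0.13 for Tspan31. The cause of the changes of sign was not tested. Fits that leave out a library have 2 samples in that group. No paired analysis was possible because the labels carry no replicate numbers. Cd53 and Tspan2 lacked reads only in TP-DSCs replicate 2, the library with the fewest gene reads (17015581). Tspan6 had 0 reads in TP-DSCs replicate 3 and 121 in the shallower replicate 2, and Upk1a had none in any TP-DSC library. Whether depth accounts for these missing reads was not tested.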
